A study of Mus musculus with 6 samples.

Results

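The oligoadenylate synthetase (OAS) genes of the mouse were followed in N18-Fms cells, a prostate cancer line stimulated with colony-stimulating factor 1 (CSF-1). The genes are Oas1a, Oas1b, Oas1c, Oas1f, Oas1g, Oas2, Oas3, Oasl1 and Oasl2. They were chosen by the gene name that the array files give to each probe, which found all 9 genes, with 12 probes, among 36028 genes with a usable probe.

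N18-Fms (N18-CFMS in the sample labels) derives from N18, a luciferase-expressing subclone of the TRAMP C2H line. Murine wild-type c-fms, which encodes the CSF-1 receptor, was introduced by retrovirus, and receptor-positive cells were sorted, so the cells are a transduced population from 1 subclone. The cells of all 6 arrays carry this receptor, and no cells without it were hybridized, so the values compare cells with and without added CSF-1. The paper detected CSF-1 in medium conditioned by N18 and proposes autocrine activation of the receptor, so unstimulated here means that no CSF-1 was added. No control is labelled for 24 h or 48 h, so time in culture cannot be told apart from added CSF-1. The groups were unstimulated cells, cells given 100 ng/mL CSF-1 for 24 h and cells given the same dose for 48 h, with 2 single-color Agilent arrays in each, from RNA that the methods describe as coming from independent experiments. Medium of all groups contained dihydrotestosterone. The times are those of the labels; the methods section of the study gives other times.

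OAS enzymes bind double-stranded RNA and join ATP into short 2'-5'-linked oligoadenylates. These are second messengers that lead to the cutting of viral and cellular RNA. Oas1a, Oas1g, Oas2 and Oas3 encode synthetases, whereas Oas1b, Oas1c and Oasl1 are known for little or no synthetase activity; Oasl1 and Oasl2 carry ubiquitin-like domains. OAS genes are classical interferon-stimulated genes, switched on through the interferon-stimulated response element (ISRE) to which STAT2 and IRF9 are recruited.

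The sequences below are the 250 bases before the transcription start, in the direction of the gene, from RefSeq (build GRCm38.p6), and are shown because they hold the letters of an ISRE core. The promoter table held 6 of the 7 members that rose below plus Oas1g. Capitals mark an ISRE core, taken as GAAA, any 2 bases and GAAA again, searched on both strands (on the opposite strand TTTC, 2 bases, TTTC), with overlapping matches joined.
Oas1a, chr5:120907526-120907775, minus strand: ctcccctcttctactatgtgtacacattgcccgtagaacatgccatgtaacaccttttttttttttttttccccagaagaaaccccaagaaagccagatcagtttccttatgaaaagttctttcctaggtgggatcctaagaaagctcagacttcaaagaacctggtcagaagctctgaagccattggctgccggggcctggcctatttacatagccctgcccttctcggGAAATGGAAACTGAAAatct
Oas1g, chr5:120887614-120887863, minus strand: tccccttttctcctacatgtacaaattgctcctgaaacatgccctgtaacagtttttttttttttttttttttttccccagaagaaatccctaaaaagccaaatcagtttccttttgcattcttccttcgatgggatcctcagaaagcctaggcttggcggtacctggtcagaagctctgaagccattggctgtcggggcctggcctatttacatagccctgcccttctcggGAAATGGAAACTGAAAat
Oas1c, chr5:120812515-120812764, minus strand: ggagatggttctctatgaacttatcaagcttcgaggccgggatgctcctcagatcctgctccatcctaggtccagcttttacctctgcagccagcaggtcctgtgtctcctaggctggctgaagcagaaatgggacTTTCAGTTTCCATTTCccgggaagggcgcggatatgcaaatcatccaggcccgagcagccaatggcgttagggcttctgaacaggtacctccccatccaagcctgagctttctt
Oas3, chr5:120777660-120777909, minus strand: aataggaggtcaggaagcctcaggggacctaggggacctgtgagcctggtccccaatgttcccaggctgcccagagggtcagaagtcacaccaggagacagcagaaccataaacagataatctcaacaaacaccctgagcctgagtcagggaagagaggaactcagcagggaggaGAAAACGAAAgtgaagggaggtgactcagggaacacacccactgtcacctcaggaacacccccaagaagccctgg

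Of 32851 such windows in the table, 978 (2.98%) held the core. It was found upstream of Oas1a, Oas1c, Oas1g and Oas3, and these letters were not in the windows of Oas1f, Oasl1 and Oasl2. Oas1a held 2 overlapping copies, at -20 to -11 and -14 to -5 from the start, and Oas1g held them at -18 to -9 and -12 to -3. Oas1c held 2 copies on the opposite strand, at -114 to -105 and -108 to -99. In all 3 genes the joined copies spell the same 16 bases, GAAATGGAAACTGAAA, which 7 of the 32851 windows (0.0213%) contained, at Apol9a, Apol9b, Oas1a, Oas1c and Oas1g. This element was singled out after its sequence was seen. The shorter GAS core, TTCNNNGAA, stood in 2306 windows (7.02%) and, among these genes, at -98 to -90 of Oas1a. A match describes the letters and is not a bound site.

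Signals are given as log2 of the background-subtracted spot signal minus the 75th percentile of the same array, so 0 is the signal of that percentile. A fold change is the difference between group means on this scale. A gene entered the test if its brightest probe cleared background clearly in each of the 2 arrays of some group, which left 24643 genes and 8 of the 9 members. A gene was said to have risen or fallen at a Benjamini-Hochberg adjusted p under 0.05 in limma over all genes tested. With 2 arrays against 2, an exact permutation test cannot go below 0.333. The calls therefore rest on the limma model. It joins each gene's own spread (3 degrees of freedom) to a spread shared across genes (2.39 degrees of freedom).

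After 24 h of CSF-1, 7 of the 8 tested members rose and 0 fell, against 8.02% of all genes that rose and 5.99% that fell. After 48 h these 7 again rose and 0 members fell, against 6.58% and 7.38%. Both comparisons share the unstimulated arrays. The median log2 fold change of the tested members was 4.35 at 24 h and 5.68 at 48 h, and of all genes 0.04 and -0.04. The exception was Oas1b, by its brighter probe. Oas1c and Oas2 were well above background on 0 unstimulated arrays and Oas3 on 1, and they entered the test through the stimulated arrays, where they are high. The calls of Oas1c and Oas2 therefore rest on unstimulated signals that were not well above background, and that of Oas3 does in part. The filter given next leaves these genes out. With all 6 arrays required to be well above background, 4 of 5 tested members rose at 24 h, against 8.5% of all genes, and 4 at 48 h, against 7.67%. Median centring changed the split over all genes at 24 h to 4.86% that rose and 15% that fell. All 4 stimulated arrays lay above both unstimulated arrays for the 7 members, as they did for 18% of all genes.

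**Figure D1:**
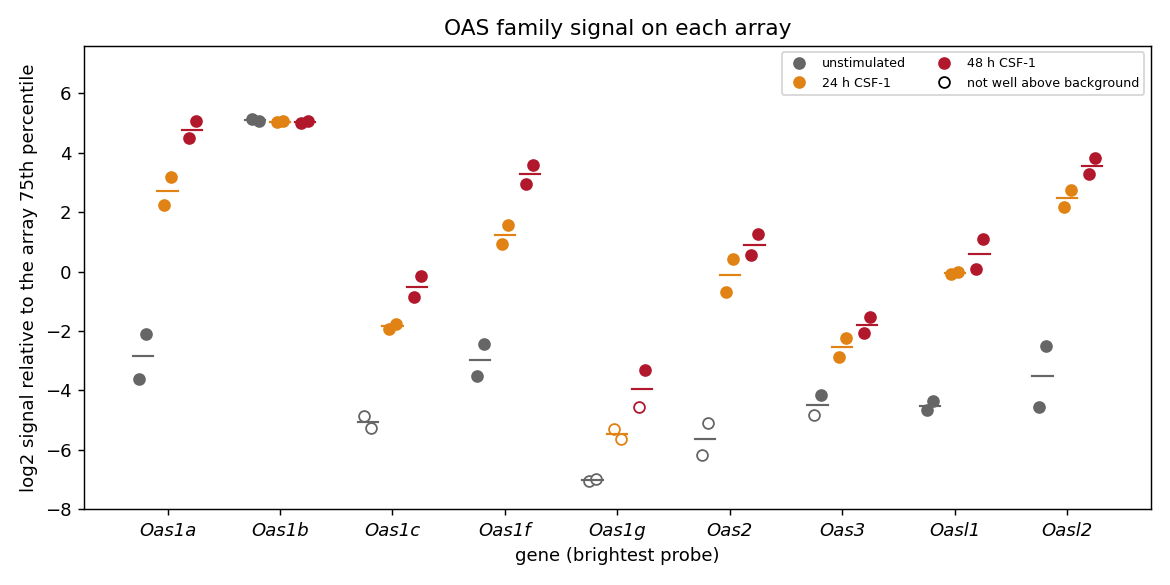
Log2 signal of the brightest probe of each OAS gene on each of the 6 arrays, relative to the 75th percentile of the array; lines are group means of 2 arrays and open circles mark arrays where the probe was not well above background. The 7 members that rose were higher on all 4 stimulated arrays than on both unstimulated ones, Oas1g was not well above background on 5 arrays, and Oas1b lay between 5.01 and 5.15 throughout.

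Oas1a, a synthetase, had the largest fitted change of the tested members at 48 h when its brighter probe stood for it. Its brighter probe, at chr5:121346735-121346794 of build mm9, which the array annotation assigns to both Oas1a and Oas1g, read -3.6 and -2.1 on the unstimulated arrays, 2.23 and 3.2 at 24 h, and 4.49 and 5.08 at 48 h. The groups did not overlap. The log2 fold change was 5.56 (SE 0.58, adjusted p = 0.00682, limma) at 24 h, which is 47.2-fold, and 7.64 (SE 0.58, adjusted p = 0.00283) at 48 h, which is 199-fold. Without the first unstimulated array these were 4.81 and 6.89, and without the second 6.31 and 8.39. The other probe, at chr5:121348338-121348397 and assigned to Oas1a only, read -4.44 and -3.75, then -0.08 and 0.7, then 2.07 and 2.62. Fitted on its own over all probes, it rose by 4.40 (adjusted p = 0.00493) and 6.44 (adjusted p = 0.00183), so both Oas1a probes gave a rise. By this probe Oas1a was not the largest at 48 h, since Oasl2 had 7.09 and Oas2 6.56.

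Oas1f rose alongside. Its probe read -3.51 and -2.43 without stimulation, 0.93 and 1.57 at 24 h, and 2.95 and 3.6 at 48 h. The log2 fold changes were 4.22 (SE 0.44, adjusted p = 0.00683) and 6.25 (SE 0.44, adjusted p = 0.00228), again without overlap. The Oas1f probe and the brighter Oas1a probe are 15 edits apart over 60 bases and were the most alike of the 120 pairs among 16 OAS probes, with a longest shared run of 14 bases. Hybridization of one transcript to the other probe was not tested.

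Oas1c was not well above background on either unstimulated array, where it read -4.86 and -5.28, so a lower bound is given. It read -1.92 and -1.77 at 24 h and -0.87 and -0.16 at 48 h. This was at least 7.37-fold higher at 24 h (adjusted p = 0.00423) and at least 18.5-fold higher at 48 h (adjusted p = 0.00161). A bound takes, on each unstimulated array, the higher of the probe's own signal and the lowest signal among probes well above background. This floor is not a detection limit. On the first unstimulated array it was -4.76, and the Epcam probe read -4.55 there without being well above background. Each "at least" therefore holds for this floor only. The adjusted p beside a bound, here and below, is that of the limma fit to the measured signals. That fit uses unstimulated signals not well above background, so its p cannot be read as a test of the size given. The bound itself was not tested.

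Oas2, a synthetase, was likewise not well above background in unstimulated cells, at -6.19 and -5.11. It read -0.68 and 0.44 at 24 h, and 0.56 and 1.26 at 48 h. These were at least 24.3-fold (adjusted p = 0.00569) and at least 49.6-fold (adjusted p = 0.00325) higher. Both adjusted p again rest on unstimulated signals that were not well above background. Oas3, the synthetase with the most repeats of the catalytic unit, showed the smallest rise among the 7. It read -4.82 and -4.14, of which only the latter was well above background, then -2.86 and -2.23, then -2.07 and -1.52, for log2 fold changes of 1.94 (SE 0.34, adjusted p = 0.0248) and 2.68 (SE 0.34, adjusted p = 0.0113).

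The 2 OAS-like genes both rose. Oasl1, known to restrain translation of Irf7 mRNA, read -4.67 and -4.37 without stimulation, -0.08 and 0 at 24 h, and 0.09 and 1.09 at 48 h. It rose by 4.48 (SE 0.33, adjusted p = 0.00309) and 5.11 (SE 0.33, adjusted p = 0.00193). Oasl2 read -4.57 and -2.49, then 2.18 and 2.76, then 3.29 and 3.84. The 2 unstimulated arrays of Oasl2 lay further apart than those of any other tested member, yet both were below all 4 stimulated arrays, and the log2 fold changes were 6 (SE 0.68, adjusted p = 0.00842) and 7.09 (SE 0.68, adjusted p = 0.00518). Without the first unstimulated array these were 4.96 and 6.05, and without the second 7.04 and 8.13.

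The sizes depended on the background correction. After normexp with an offset of 50 added to every signal and the same scaling, the 7 members still passed, with log2 fold changes from 0.7 (Oas3) to 4.77 (Oasl2) at 24 h and from 1.17 (Oas3) to 6.53 (Oas1a) at 48 h. Oas1c then had 1.51 and 2.54 and Oas2 2.78 and 3.69, below the bounds given above, which hold for the background-subtracted signal. With quantile normalization after normexp, Oas1c had 1.39 and 2.46, Oas2 2.7 and 3.63, and Oas3 did not pass at 24 h (0.53, adjusted p = 0.11).

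Oas1b, the gene at the flavivirus resistance locus and a transcribed pseudogene in the RefSeq table, gave different answers with its 2 probes. The brighter, at chr5:121274109-121274168, read 5.15 and 5.08 without stimulation, 5.03 and 5.06 at 24 h, and 5.01 and 5.06 at 48 h. Its log2 fold changes were -0.07 (95% interval -0.34 to 0.19, adjusted p = 0.689) and -0.08 (-0.34 to 0.18, adjusted p = 0.655). The dimmer, at chr5:121273890-121273949 and well above background on all 6 arrays, read -1.55 and -1.74, then -0.96 and -0.98, then -0.59 and -0.28. Fitted over all probes, this probe rose by 0.67 (adjusted p = 0.0473) at 24 h and 1.21 (adjusted p = 0.0124) at 48 h. What sets the 2 probes apart was not tested.

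Oas1g, a synthetase close in sequence to Oas1a, was not tested. The brighter of its probes, which is annotated to Oas1a as well, read -7.05 and -6.97, then -5.3 and -5.62, then -4.57 and -3.31, and was well above background only on the last of these arrays. The dimmer, annotated to Oas1g only, was not well above background on any array.

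**Figure D2:**
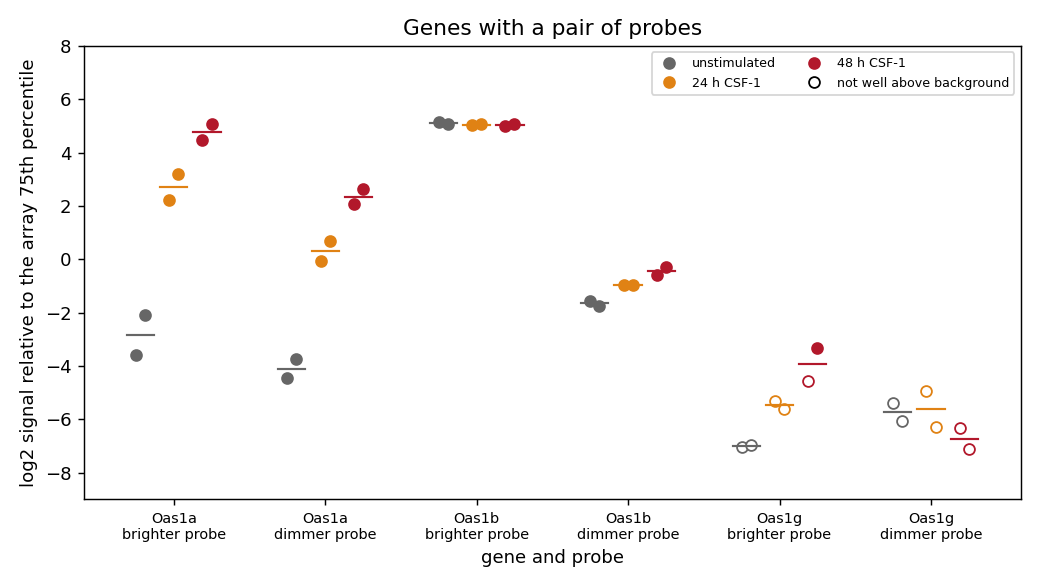
Log2 signal on each of the 6 arrays for both probes of Oas1a, Oas1b and Oas1g, relative to the 75th percentile of the array; lines are group means of 2 arrays and open circles mark arrays where the probe was not well above background. Both Oas1a probes were higher after CSF-1. The group mean of the dimmer Oas1b probe went from -1.64 unstimulated to -0.43 at 48 h, whereas the brighter one stayed between 5.01 and 5.15.

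Between 24 h and 48 h, 0 members and 0 of all genes (0%) passed the adjusted threshold in limma. At an unadjusted p under 0.05 there were 3 members and 13.6% of all genes, and the same number of members with at least a 2-fold difference as well, against 2.27%. The 3 were Oas1a, with a log2 difference of 2.07 (adjusted p = 0.241), Oas1f with 2.03 (adjusted p = 0.178) and Oas1c with 1.33 (adjusted p = 0.166). Of the 8 tested members, 7 had the higher mean at 48 h, with a median difference of 1.06 against -0.08 over all genes. After normexp background correction and the same scaling, Oas1a (2.04, adjusted p = 0.0396) and Oas1f (1.97, adjusted p = 0.0216) passed, with 0.856% of all genes called.

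Some arrays bear on these calls; where 1 is left out, the remaining array of its group is assumed to vary like the others. Leaving out the second 24 h array left 1 member, Oasl1, past the threshold at 24 h, with 1.52% of all genes called. The other 6 then had log2 fold changes between 1.62 and 5.71 and adjusted p between 0.0513 and 0.119, with the remaining 24 h array on a different slide from the other 5. Without that other-slide array, which is the comparison within 1 slide, 6 members rose at 24 h and Oas3 did not pass (2.25, adjusted p = 0.0571). Oas3 also lost its call at 24 h without either unstimulated array or without the first 48 h array. At 48 h it lost it without the first unstimulated array or either 48 h array, and Oasl2 without the first 48 h array (7.37, adjusted p = 0.0522).

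The tested members other than Oas1b varied together. The mean of the 8 tested members, each centred on its own mean, was -3.33 and -2.56 on the unstimulated arrays, 0.65 and 1.18 at 24 h, and 1.73 and 2.33 at 48 h. In 6 of the 8 members replicate 2 was higher than replicate 1 in every group, against 14.7% of all genes tested. Over the 28 pairs of tested members, the Pearson correlation across the 6 arrays ranged from -0.85 to 1, with a median of 0.98. Every pair with Oas1b was negative, from -0.85 to -0.73. These pairs use its brighter probe, which lay between 5.01 and 5.15 on all arrays. Its dimmer probe, which rose at both times, did not enter the correlations. These arrays fall into stimulated and unstimulated ones, so the correlations describe that shared step. Among 1221 other genes with a change of at least 2-fold at both times, the 5 most like this mean profile over the 6 arrays were ENSMUST00000037976 (r = 0.9995), Apol9a (r = 0.9993), Gbp2 (r = 0.9993), Isg15 (r = 0.999) and Slfn10-ps (r = 0.9989). Apol9a, second in this order, is also one of the genes with the 16-base element printed above. Oas1f, Oasl1 and Oasl2 rose too, and their windows did not hold the core. Whether the element has a part in this profile was not tested.

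All members lie on chromosome 5, in the Oas1-Oas2-Oas3 cluster and in the separate Oasl2-Oasl1 pair. Of 11 tested protein-coding genes nearest to them by RefSeq order, 0 passed at either time in limma, against 14% of all genes called in either direction at each time, with log2 fold changes between -0.49 and 0.22. The largest at 48 h were those of Ankrd13a (-0.48, adjusted p = 0.0831) and Ptpn11 (-0.44, adjusted p = 0.0956), and the smallest those of Tpcn1 (-0.04) and 2210016L21Rik (0). Ankrd13a passed in 3 of 19 alternatives at 24 h and 2 at 48 h, and Ptpn11 in 1 at each time. Within the cluster, 2 further OAS genes that were well above background on all 6 arrays did not pass either. These were Oas1d, with log2 fold changes of 0.02 (95% interval -0.44 to 0.48) and 0.37 (-0.1 to 0.83), and Oas1e, with 0.35 (-0.19 to 0.88) and 0.44 (-0.09 to 0.98). Oas1h was not tested.

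**Figure D3:**
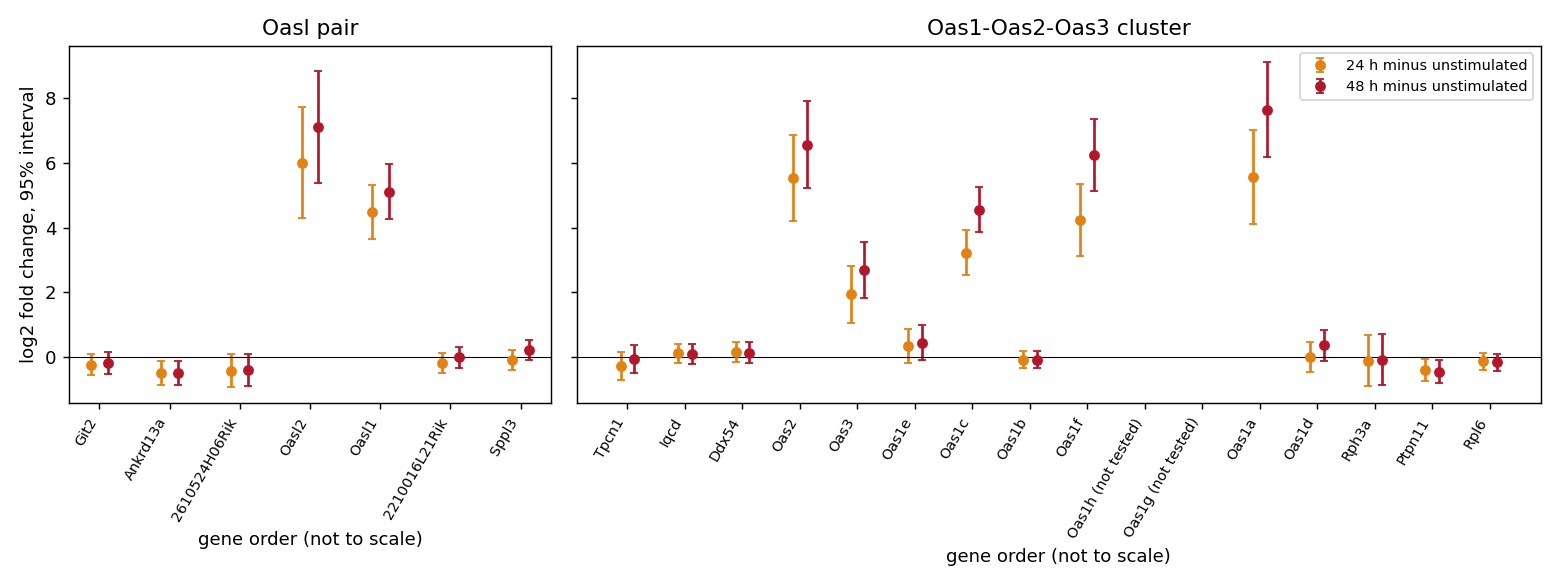
Log2 fold change against unstimulated cells at 24 h and 48 h, with 95% intervals from limma, for OAS genes and 11 tested protein-coding neighbours, in gene order. The 7 members that rose stand between 1.94 and 7.64, and the 11 neighbours between -0.49 and 0.22; for Oas1c and Oas2 the fitted values are drawn, whose unstimulated signal was not well above background.

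Of 3 genes that act on OAS products or on the steps after them, 0 rose and 2 fell at both times, against 5.99% and 7.38% of all genes that fell. Abce1, which encodes a ribosome recycling factor, fell by 0.68 (adjusted p = 0.0319) and by 0.82 (adjusted p = 0.0204) on the log2 scale, and lost its call in 9 of 19 alternatives at 24 h and 7 at 48 h. Akap7, which encodes a protein with a 2'-5' phosphodiesterase domain, fell by 1.3 (adjusted p = 0.00479) and by 0.84 (adjusted p = 0.014), and lost its call in 2 of 19 alternatives at 24 h and 6 at 48 h. Its other probes were fitted in limma over all probes. A_55_P2110032 gave -1.35 (adjusted p = 0.0164) at 24 h and -0.66 (adjusted p = 0.0894) at 48 h. A_55_P2174743 gave -0.11 (adjusted p = 0.692) and -0.24 (adjusted p = 0.357). Pde12, an enzyme that degrades 2'-5' oligoadenylates, had -0.03 and -0.27 and did not pass.

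Other RNA sensors rose in part: 5 of 9 at both times and 0 fell, against 8.02% and 6.58% of all genes that rose, with a median of 1.63 at 24 h and 1.67 at 48 h. Zbp1, a sensor of Z-form nucleic acid, rose by 3.86 (adjusted p = 0.00414) and 4.77 (adjusted p = 0.00209). Tlr3, the endosomal receptor for double-stranded RNA, was not well above background unstimulated and entered the test through the stimulated arrays. In the background-subtracted signal it was at least 3.12-fold (adjusted p = 0.0117) and at least 7.19-fold (adjusted p = 0.0054) higher. Over the alternatives Tlr3 went down to 0.69 at 24 h and 1.5 at 48 h on the log2 scale, below the bounds of 1.64 and 2.85. It lost its call in 6 of 18 alternatives at 24 h and 1 at 48 h, and without the first or second 48 h array its bound at 48 h was 11.5-fold or 4.49-fold. Mavs, the adaptor of cytosolic RNA sensors, had -0.25 and -0.33, and Adar, which edits double-stranded RNA, had 0.4 and 0.29; neither passed. Adar passed in 4 of 19 alternatives at 24 h and 2 at 48 h, among them the mean of its probes, with 0.82 (adjusted p = 0.025) and 0.98 (adjusted p = 0.0172). Of the related DNA-sensing pair, Sting1 rose by 1.76 (adjusted p = 0.00376) and 1.48 (adjusted p = 0.0051), and Cgas, whose product resembles OAS in fold, had -0.31 and -0.34 and did not pass.

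Of 10 genes that carry the interferon signal, 9 were tested, and 4 rose at each time, against 8.02% and 6.58% of all genes, with 0 lower. Irf7 rose by 3.67 (adjusted p = 0.00145) and 4.91 (adjusted p = 0.000928), and Stat2 by 2.77 (adjusted p = 0.00235) and 3.54 (adjusted p = 0.00127). Irf3 had 0.1 and -0.05 and Jak1 -0.37 and 0, and neither passed. The Ifnb1 probe was not well above background on any array. Csf1r, the introduced receptor, had 0.22 (adjusted p = 0.367) and -0.07 (adjusted p = 0.793).

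**Figure D4:**
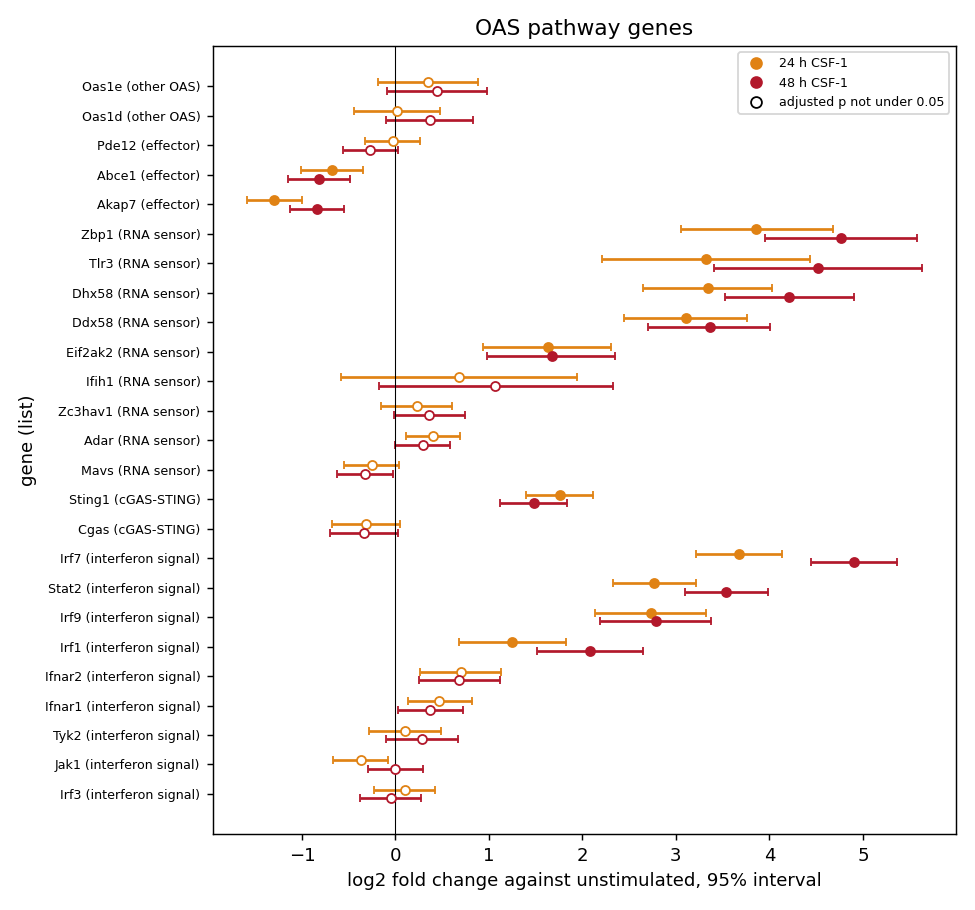
Log2 fold change against unstimulated cells at 24 h and 48 h, with 95% intervals from limma, for tested genes of the OAS pathway lists; filled circles passed an adjusted p under 0.05. Irf7 reached 4.91 and Zbp1 4.77, while Abce1 and Akap7 lay below 0.

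The labelled prostate line was checked against markers. Of 4 epithelial markers, Krt8 was above background on all 6 arrays, Epcam on 1 and Cdh1 on none. Krt18 was above it on 2 arrays at 24 h and 1 at 48 h. The summed signal of the 4 relative to the 75th percentile was 0.2 to 0.274 unstimulated, 0.407 to 0.42 at 24 h and 0.635 to 0.794 at 48 h. In each group this was the lowest sum of the marker lists. Krt8 rose by 1.98 at 48 h (adjusted p = 0.0106), whereas its 0.74 at 24 h did not pass (adjusted p = 0.112). Krt18 did not pass at either time. Of 8 macrophage and leukocyte markers, 5 were above background on all 6 arrays and Lyz2 on none; the summed signal, most of it Itgam, was 40.1 to 44.7, then 32.9 to 40.3, then 26.4 to 35.6. Of these markers 2 rose at both times and 0 fell, namely Mrc1 by 4.27 (adjusted p = 0.000845) and 3.56 (adjusted p = 0.000928) and Cd14 by 0.87 (adjusted p = 0.0101) and 0.69 (adjusted p = 0.0191). Of 3 plasmacytoid markers the sum was 68.8 to 80.6, 66.7 to 67.8 and 81.7 to 84.9. Bst2, itself interferon-stimulated, rose by 2.15 (adjusted p = 0.00583) and 3.58 (adjusted p = 0.00146), while Siglech, most of the unstimulated sum, had -0.35 and -0.4 and did not pass. Of 3 fibroblast markers the sum was 124 to 126, 67.7 to 68.9 and 50.5 to 61.5, most of it Col1a1, which fell by 0.88 (adjusted p = 0.0178) and 1.19 (adjusted p = 0.00859). The other fibroblast markers went the other way, with Dcn up by 2.08 (adjusted p = 0.0156) and 2.78 (adjusted p = 0.00744) and Pdgfra by 1.33 (adjusted p = 0.0178) at 24 h, whereas its 0.63 at 48 h did not pass (adjusted p = 0.109). Their part in the OAS changes was not tested. More cells of a type and more RNA per cell cannot be told apart in such samples.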

How the data were processed

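Expression was measured on 6 single-color arrays. The authors deposited Feature Extraction 11.0.1.1 output, of which the background-subtracted signal intensity, not normalized between arrays, was used; mean and local background intensities entered normexp. They also deposited log2 values, whose normalization is not given in the sources used here; of their differences between arrays, 99.81% lay within 0.05 of those of the scanner signal, apart from a constant per array. Direction and scale follow it, each probe's centring stays unknown, and column medians ran from -0.0378 to 0.173.

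Outlier spots were left out, which removed 303 probes, and repeated spots were averaged. The brightest probe by mean stood for a gene. Between 58.7% and 72% of 59305 spots were well above background, 0 were saturated, and the 75th percentile was 550.3 to 610.9; the number of arrays limits precision.

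All 6 arrays entered one fit in R 4.3.3 with limma 3.58.1. On simulated data with 24643 genes, limma recovered 42% of genes changed by 1 on the log2 scale and 92% of those changed by 2 at 24 h, and 45% and 90% at 48 h. Only 100 genes were changed by each amount, whereas 3453 were called at 24 h in the data. The noise was independent and normal, with the spread that limma had estimated. These shares describe that setting and are not the power of this experiment. The members and gene lists were chosen with earlier results of these data known. All members, the other OAS genes and the effectors are named; of longer lists, those with the 2 largest and 2 smallest changes at 48 h. Alternatives covered scaling, background, filter, probe choice, test, block and left-out arrays; one, on ties among repeated spots, was added after the data were seen. Exons and UTRs of the probes were not analysed here. Some genes of the lists and neighbours are not reported here.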

Additional observations from a re-analysis of the deposited data

How the results depend on the processing

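The number of members called stayed within 1.5 times its value in 18 of 21 alternatives at 24 h and 19 of 21 at 48 h. Between the times, where it was 0, it stayed 0 in 18 of 21. With all 6 arrays required to be well above background, 4 of 5 tested members rose at 24 h (8.5% of all genes) and 4 at 48 h (7.67%), since fewer members were tested. The methods' t-test with Benjamini-Hochberg adjustment called 0 members at 24 h and 0 at 48 h, and 0 of all genes; at an unadjusted p under 0.05 and 2-fold it gave 6 members at 24 h (5.49% of all genes) and 7 at 48 h (4.71%). Between the times, 3 members passed at an unadjusted p under 0.05 and 2-fold, and 2 under normexp with either scaling (0.856% of all genes with the percentile shift and 1.16% with quantile normalization); the cause was not tested. With 1 array left out, 1 to 7 members were called at 24 h, 6 to 7 at 48 h and 0 between the times. The main fit did not pair replicates by number. Over all genes tested, deviations from the group mean correlated between groups at 0.13, 0.09 and 0.2. In 6 of the 8 tested members replicate 2 was the higher in every group, against 14.7% of all genes. With the replicate block 7 members were called at 24 h and 7 at 48 h, and 0 between the times. Oas3 lost its call at 24 h in 9 of 18 alternatives and at 48 h in 4.

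Signs turned for values near 0, none of them called in the values reported. Oas1b turned to 0.3 at 24 h, 0.56 at 48 h (adjusted p = 0.0392 in limma) and 0.26 between the times with the mean of its probes, to 0.03 at 24 h under normexp with quantile normalization, and, between the times, to 0.18 with median centring and 0 with the authors' log2 values. Under quantile normalization Oas1d read -0.14 at 24 h, and Tpcn1 0.03, Irf3 0.06, Csf1r 0 and 2210016L21Rik 0.05 at 48 h. With median centring, which moved the median of all genes to -0.25 at 24 h and -0.14 at 48 h, Oas1d read -0.26, Csf1r -0.06 and Irf3 -0.19 at 24 h, and Jak1 -0.1 at 48 h. Under normexp with quantile normalization Oas1d read -0.04 and Pde12 0 at 24 h, and Csf1r 0.01, Irf3 0.05, Tpcn1 0.02 and 2210016L21Rik 0.06 at 48 h. Under normexp with the percentile shift Jak1 read 0 and 2210016L21Rik 0 at 48 h. With the mean of probes Csf1r read 0.06 and Cgas 0, and with the authors' values 2210016L21Rik 0.01. With 1 array left out, Oas1b ran from -0.03 to 0.02 between the times, and Oas1d from -0.2 to 0.24 and Pde12 from -0.13 to 0.06 at 24 h. At 48 h Csf1r ran from -0.2 to 0.06, Irf3 from -0.18 to 0.07, Jak1 from -0.07 to 0.08, Tpcn1 from -0.24 to 0.15 and 2210016L21Rik from -0.12 to 0.12.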
